A study of Homo sapiens with 9 samples.

Results

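The cytosolic ribosomal proteins are the proteins of the ribosome that works in the cytoplasm, as opposed to the separate ribosome of mitochondria. The genes described here were chosen by name: protein-coding rows whose symbol starts with RPL or RPS and a digit, plus RPLP0, RPLP1, RPLP2 and RPSA, without the RPS6 kinases, RPS4Y genes and readthrough rows. The rule used no measured value and found 87 genes of 57820 in the tables. Of these, 77 are core ribosomal proteins (31 of the small subunit and 46 of the large subunit), 9 are paralogs of a core protein, and RPS19BP1 encodes a protein that binds RPS19 and is not part of the ribosome. In every comparison 85 of the 87 passed the filter on low counts. RPL10L was at 0 reads in all 9 libraries and RPL3L, a muscle paralog of RPL3, did not exceed 0.256 CPM (reads of a gene scaled to the size of the library).

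RNA was sequenced from MOLM13, a human acute myeloid leukaemia cell line with a KMT2A (MLL) fusion and an internal tandem duplication in FLT3, grown in RPMI-1640 with serum. The control cells carried a non-targeting guide RNA (CTRL, n = 3). The knockout cells carried RBM5-sg1, a single guide against a coding exon of the RNA-binding protein RBM5 (RBM5 KO, n = 3). The overexpressing cells carried a lentiviral RBM5 cDNA (RBM5 OE, n = 3), so RBM5 OE and CTRL also differ in the vector they received, and RBM5 level and vector cannot be told apart. The 3 samples of a group are called biological replicates in the sample records, and p-values measure the spread between these cultures. RBM5 itself lay at 113 to 122 CPM in CTRL, at 70.5 to 79.4 CPM in the knockout and at 380 to 416 CPM in the overexpressing cells. The RBM5 KO level is that of the mRNA, which an edited gene can still make.

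Ribosomal protein mRNAs are among the most abundant in a growing cell, since every ribosome needs a copy of nearly all of these proteins. Most of them begin with a C followed by an unbroken run of C and T, the terminal oligopyrimidine (TOP) tract, through which LARP1 and the mTORC1 kinase control their translation together. Ribosome output is also tied to rRNA synthesis by RNA polymerase I and to a long assembly line in the nucleolus. Loss of a copy of several of these genes causes Diamond-Blackfan anaemia, and RPL5 and RPL11 bind MDM2 and stabilise p53 when assembly fails. Paralogs such as RPL22L1 and RPS27L arose by duplication and can stand in for, or differ in use from, the parent protein.

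The start of the mRNA holds the TOP tract, and the windows of the paralog pairs and genes that the results turn on are printed to show which of them have it. They come from RefSeq (GRCh38.p14, a later build than the one used for the counts) and hold the 10 bases before the annotated start and the 15 bases from it. Capitals mark the unbroken run of C and T that begins with a C at the first transcribed base.
RPS27, chr1:153990752-153990776 (+): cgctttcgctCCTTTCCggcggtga
RPS27L, chr15:63157463-63157487 (-): gatgccgagcgcagatcgcttgcag
RPL26, chr17:8383179-8383203 (-): gcgtgtagttCTCTTCCCTTTTgcg
RPL26L1, chr5:172958719-172958743 (+): tccaggggtcggcgaacgaaacgcg
RPL36A, chrX:101391001-101391025 (+): ctcgcggtttCTTTCTTTCCgcgcc
RPL36AL, chr14:49620612-49620636 (-): tcttccctttCCTgttaggcgagag
RPL22, chr1:6199581-6199605 (-): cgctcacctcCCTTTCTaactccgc
RPL22L1, chr3:170870181-170870205 (-): ccgtagcttcCTCTCTgctctcgcg
RPL7L1, chr6:42879606-42879630 (+): gtgcggcgccgtagctaggagcgga
RPS26, chr12:56041908-56041932 (+): acataacctcgattttcttccgcca
RPS9, chr19:54200848-54200872 (+): gcttccgcgcCTCTTTCTCagtgac
RPL12, chr9:127451392-127451416 (-): cgatttccggCCTCTCggctttcgg

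With a run of at least 5 bases counted as a tract, 46 of the 62 core genes in the RefSeq table (74.2%) had one at an annotated start, against 5.14% of all 27305 genes of that table. Of the 6 paralogs or RPS19BP1 in the table only RPL22L1 had one. RPS27L, RPL26L1 and RPL7L1 had no C at the first base, and RPL36AL had a run of 3 bases. Among the 17 translation factors and other genes listed as having TOP mRNAs, 10 of the 11 in the table had a tract. Of the mitochondrial ribosomal proteins, 6 of 69 did. A tract is scored only at the exact annotated base: RPS26 has a pyrimidine run a few bases further in and was not counted. The 19 ribosomal protein genes without an entry in the table were not scored. The ETS factor core CCGGAAG, searched on both strands of the 300-base promoter windows, was found for 35.5% of the matched core genes and 12.2% of all genes in the table. The share among the genes of the table that were tested for expression was 22.4%, and TATAAA was found for 8.06% of core genes and 8.26% of tested genes.

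Libraries held 25522952 to 27871988 estimated reads. All 10 myeloid markers reached 1 CPM in all 9 libraries. Marker lists of B, T, erythroid, and fibroblast or epithelial cells summed to at most 4.86 CPM. The summed myeloid markers differed by group, at 3681 to 3954 CPM in CTRL, 4225 to 4854 CPM in RBM5 KO and 2949 to 2999 CPM with RBM5 cDNA, and the part of this in the ribosomal protein values was not tested. CTRL replicate 3 stood apart from its group, with a chi-square per gene of 16.8 and 22.9 against the other CTRL libraries, which differed from each other by 9.2. RBM5 KO replicate 1 did so too, at 41.1 and 35.2 where the other two differed by 10.1. Counts are also given without these libraries where they change.

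The ribosomal protein genes held a large share of all transcripts counted per length, and the share by TPM was higher in RBM5 OE. Their summed share of TPM (transcript abundance corrected for length) was 23.3%, 24.2% and 23.1% in the CTRL libraries, 22.9%, 23.1% and 23.6% in RBM5 KO, and 25.8%, 25.3% and 25.1% in RBM5 OE. The RBM5 OE libraries lay above all 6 others, and the CTRL and RBM5 KO libraries overlapped. The group means were 23.5% ± 0.582 (SD, n = 3), 23.2% ± 0.382 and 25.4% ± 0.35. Both subunits showed the same order, with 9.71%, 9.55% and 10.5% for the small subunit and 13.7%, 13.5% and 14.8% for the large. Mitochondrially encoded transcripts moved the other way, at 13.3%, 13.6% and 12.3% of TPM, but as a share of coding TPM without them the ribosomal proteins were still at 28.3%, 28.1% and 30.5%. As a share of reads, not corrected for length, they held 8.92%, 9.55% and 8.75% in CTRL, 8.88%, 8.39% and 9.28% in the knockout and 9.51%, 9.61% and 9.67% with RBM5 cDNA. On that scale CTRL replicate 2 lay above OE replicate 1, so the groups overlapped. A share depends on every other transcript in the library, so it does not say that the amount per cell differed, and fewer transcripts of other genes and more of these cannot be told apart in bulk RNA.

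Within the ribosome the mRNA levels were far from equal. The core genes had a median of 2636 TPM in CTRL (quartiles 1864 and 3807), and 60 of the 77 were among the 100 genes with the highest TPM. RPL8, which lies near the peptidyl transferase centre, was highest at 7699 ± 531 TPM (SD, n = 3), followed by RPS18 at 7393 ± 209.5 and RPL13A at 6689 ± 290.1. RPL22, at 444.8 ± 31.6 TPM, and RPS26, at 469.1 ± 21.3 TPM, were lowest and did not differ beyond their spread, and RPS4X came next at 861.7 ± 11.1. The highest core gene was 17.3 times the lowest. The order hardly changed between groups: Spearman's rho of the 77 mean TPM values was 0.991 between CTRL and RBM5 KO and 0.995 between CTRL and RBM5 OE, a description across genes that share libraries and transcript lengths.

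The paralogs were rare beside their parents. In CTRL, RPL39L made up 0.549% ± 0.0751 of the summed TPM of RPL39 and RPL39L (SD, n = 3), RPS27L 1.19% ± 0.0728 of its pair, RPL7L1 2.05% ± 0.162 and RPL26L1 2.36% ± 0.366. RPL36AL reached 11.5% ± 0.175 and RPL22L1 26.2% ± 0.777, the latter beside the lowest core gene.

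Processed pseudogenes are near-copies of these genes and can take their reads. The 819 rows named as ribosomal protein pseudogenes held 2.21% to 2.69% of all ribosomal protein reads, and the median parent lost 0.037% of its reads to them. The share was larger for RPL9 (32.9%), RPL41 (29.3%), RPS3A (12.3%) and RPL21 (11.0%). By TPM the pseudogene row RPL41P1, with a CTRL mean of 5306, stood above its parent RPL41 at 2830. The rank of RPL41 among the core genes thus depends on how reads are split between them. Adding the pseudogene rows to their parents left the counts of called genes in the comparisons as they were.

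The first comparison asks what loss of RBM5 did to these genes. None passed the test. With edgeR's quasi-likelihood test and Benjamini-Hochberg adjustment over all 14218 genes, 0 of 85 were higher (0.837% of all genes tested were) and 0 were lower (1.67%), and DESeq2 and limma-voom also called 0. In either direction 2.51% of all genes passed, and 1.04% did so with a fold of 2 or more. At an unadjusted p under 0.05, RPS27L was higher and RPS9 lower, 1 gene in each direction, where 8.13% and 8.62% of all genes passed. The median log2 fold change of the 85 genes was -0.02, beside 0.01 for all genes.

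**Figure D1:**
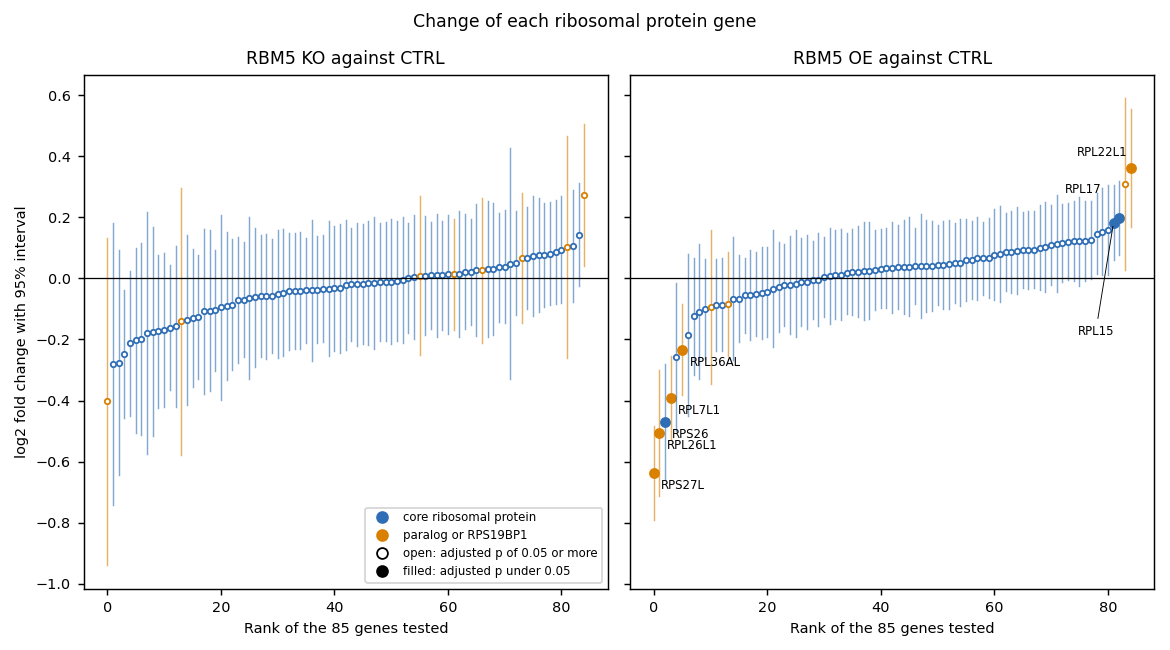
Log2 fold change of each of the 85 ribosomal protein genes tested (vertical axis, with 95% interval) by rank (horizontal axis), for RBM5 KO (left) and RBM5 OE (right) against CTRL, n = 3 libraries a group. Blue marks core genes, orange paralogs and RPS19BP1, and filled points have an edgeR adjusted p under 0.05: 0 on the left and 8 on the right, of which 5 are paralogs.

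The intervals show how far this result reaches. In RBM5 KO 75 of the 77 core genes had a log2 fold change within 0.25 of no change, as did 67.6% of all genes, but the 95% interval lay inside that range for 38 of them. It lay within 0.5 for 71. Changes that fall inside these intervals were not detectable with 3 libraries a group.

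RPS9, a small-subunit protein that helps guard decoding accuracy, was at 1398, 1559 and 1345 CPM in CTRL and at 1235, 1103 and 1288 CPM in RBM5 KO. The groups did not overlap, but the log2 fold change of -0.25 ± 0.093 (SE) had an edgeR adjusted p of 0.225. RPS27L, a p53 target gene, was at 43.4, 44.7 and 45.1 CPM in CTRL and at 58.5, 46.8 and 55.8 CPM in RBM5 KO. All 3 knockout libraries were higher, with a log2 fold change of 0.27 ± 0.10 and an edgeR adjusted p of 0.226. Groups did not overlap for 4 higher genes (RPL22, RPL26, RPS27A and RPS27L) and 1 lower gene (RPS9), beside 11.2% and 11.7% of all genes tested.

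The call of no lower gene rests on the libraries used. Without CTRL replicate 3 and RBM5 KO replicate 1, edgeR called 5 genes lower (RPL35, RPL39L, RPS9, RPS27 and RPS29) and 0 higher, while the lower calls among all genes reached 6.68% of those tested. Without RBM5 KO replicate 1 alone, RPL39L was called. RPS27, RPS29 and RPL35 are among the genes with the shortest transcripts, which were low in RBM5 KO replicate 2, and with KO replicate 1 out that library is 1 of 2 in its group.

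The second comparison asks what added RBM5 did. In RBM5 OE the core ribosomal proteins hardly moved while a large part of the transcriptome did, and the genes that passed were mostly paralogs. Of the 85 genes, 3 were higher (RPL22L1, RPL17 and RPL15; 19.8% of the 14370 genes tested were higher) and 5 lower (RPS27L, RPL7L1, RPL26L1, RPL36AL and RPS26; 20.2%). In either direction that is 9.41% of the ribosomal protein genes and 40.1% of all genes. The 7 paralogs tested gave 1 higher and 4 lower genes, and the 77 core genes 2 higher and 1 lower. No gene changed by 2-fold or more, against 5.89% of all genes tested. The median log2 fold change was 0.04, beside 0.01 for all genes, and 75 of 77 core genes lay within 0.25 of no change, as did 46.0% of all genes. The 95% interval lay within 0.25 for 60 core genes and within 0.5 for 76.

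RPS27L, whose parent RPS27 is a zinc-finger protein of the small subunit, fell most. It was at 28.9, 28.1 and 28.5 CPM in RBM5 OE against 43.4 to 45.1 CPM in CTRL, a log2 fold change of -0.64 ± 0.070 (SE; edgeR adjusted p = 4.94e-05). The 3 libraries of each group lay within 2 CPM of one another and far apart from the other group. RPS27 was at 400, 491 and 490 CPM in RBM5 OE and at 473, 545 and 489 CPM in CTRL, which overlapped (log2 fold change -0.12 ± 0.088, edgeR adjusted p = 0.288). RPS27L accounted for 0.791% ± 0.0458 of the TPM of the pair in RBM5 OE and for 1.66% ± 0.127 in RBM5 KO, on either side of CTRL.

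RPL7L1, a nucleolar relative of RPL7, was at 308, 319 and 301 CPM in RBM5 OE and at 413, 386 and 420 CPM in CTRL. The groups were apart and the log2 fold change was -0.39 ± 0.063 (edgeR adjusted p = 0.000571). RPL26L1, which is nearly the same protein as RPL26 at the mouth of the exit tunnel, was at 14.7, 13.1 and 15 CPM against 20.5, 21.0 and 19.4 CPM. Its log2 fold change was -0.50 ± 0.094 (edgeR adjusted p = 0.00142), while RPL26 was at 0.09 ± 0.057 (edgeR adjusted p = 0.217). RPL36AL, the paralog of RPL36A, was at 77.0, 80.2 and 84.6 CPM against 95.8, 91.4 and 97.5 CPM, a smaller change of -0.23 ± 0.068 (edgeR adjusted p = 0.0172). That call was lost in 5 of 18 alternatives, among them without OE replicate 1 and without OE replicate 2, where the adjusted p reached 0.0871.

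RPL22L1 moved the other way. This paralog of RPL22, itself an RNA-binding protein of the large subunit, was at 72.4, 65.5 and 56.9 CPM in RBM5 OE and at 51.1, 50.1 and 50.9 CPM in CTRL. All 3 overexpressing libraries were higher, though they spread widely, and the log2 fold change was 0.36 ± 0.088 (edgeR adjusted p = 0.00714). RPL22 was at 469, 454 and 444 CPM against 448, 421 and 438 CPM, overlapping, at 0.07 ± 0.060 (edgeR adjusted p = 0.40). RPL22L1 rose from 26.2% to 30.7% ± 2.71 of the TPM of the pair. RPL39L, the paralog of the tunnel protein RPL39, was at 9.11, 9.10 and 9.52 CPM against 7.38, 6.67 and 8.35 CPM and did not pass (0.31 ± 0.13, edgeR adjusted p = 0.0767).

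**Figure D2:**
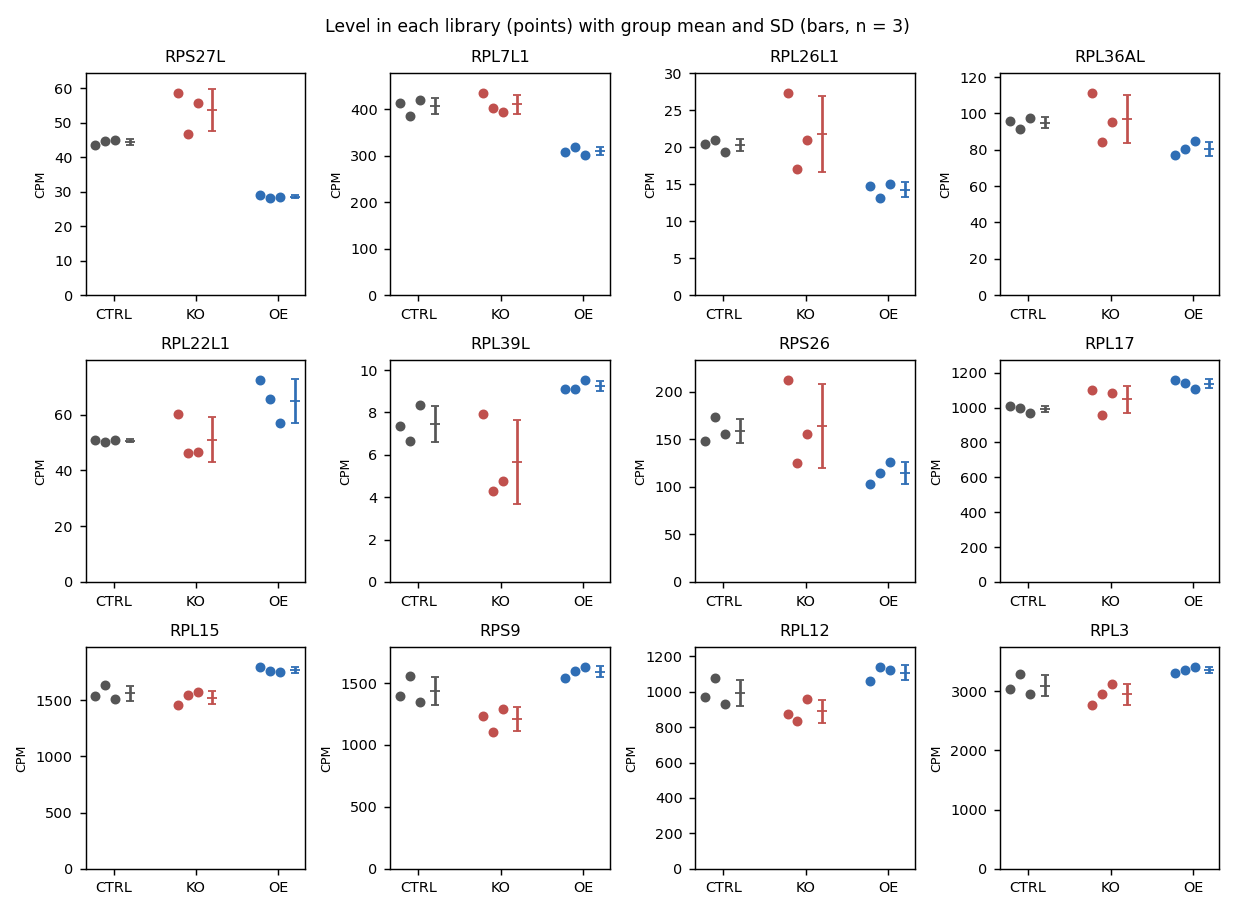
CPM (vertical axis, from 0) of 12 genes in CTRL, RBM5 KO and RBM5 OE, with a point for each library and the group mean and SD (n = 3) beside the points. RPS27L, RPL7L1, RPL26L1, RPL36AL and RPS26 sit lower in all 3 RBM5 OE libraries than in all 3 CTRL libraries, and RPL22L1, RPL17 and RPL15 higher.

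Of the core genes, RPS26 was lower and RPL17 and RPL15 were higher. RPS26, a small-subunit protein at the mRNA exit channel and a Diamond-Blackfan gene, was at 103, 114 and 126 CPM in RBM5 OE and at 148, 173 and 156 CPM in CTRL. The log2 fold change was -0.47 ± 0.087 (edgeR adjusted p = 0.00131), and the groups did not overlap. Within RBM5 KO it ranged more widely, at 212, 125 and 155 CPM, on both sides of CTRL. RPL17, a protein of the exit tunnel, was at 1157, 1143 and 1107 CPM against 1009, 997 and 972 CPM (0.20 ± 0.055, edgeR adjusted p = 0.0149). RPL15, another Diamond-Blackfan gene, was at 1793, 1763 and 1748 CPM against 1537, 1638 and 1508 CPM (0.18 ± 0.056, edgeR adjusted p = 0.0234).

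Both rises were small and close to the limit of the test. RPL17 was no longer called without OE replicate 1 or without OE replicate 2 (adjusted p up to 0.0842), and RPL15 was lost without CTRL replicate 1 or without any of the 3 OE replicates (up to 0.108). RPS27L, RPL7L1, RPL26L1, RPL22L1 and RPS26 were called in all 18 alternatives. The number of higher genes depended on the scale: 13 higher and 5 lower with library totals in place of TMM factors, and 14 higher and 4 lower with limma on log2(TPM + 1), beside 22.1% and 14.8% of all genes higher. Without CTRL replicate 2, 17 were higher and 5 lower (17.1% and 18.3% of all genes). Without OE replicate 1, 1 was higher and 4 were lower (14.2% and 15.8% of all genes), and the counts were the same without OE replicate 2 (14% and 14.6%). The genes added were core proteins such as RPL3, RPL10A, RPL12, RPL13, RPS9 and RPS20, each with a smaller log2 fold change than RPL17 in the main test.

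Groups did not overlap for 12 higher and 6 lower genes (26.1% and 25.5% of all genes). The 12 were RPL22L1, RPL17 and RPL15 with RPL3, RPL5, RPL14, RPL26, RPL39L, RPS3A, RPS4X, RPS20 and RPS27A, and the 6 were the called genes with RPL38. Reads of overlapping genes cannot be told apart, since the counts are unstranded by their name. The GENCODE annotation places the opposite-strand genes LACTB over part of RPS27L, NKIRAS1 over part of RPL15 and RPL26L1-AS1 over part of RPL26L1. RPL17 overlaps the readthrough gene RPL17-C18orf32 on its own strand. A long noncoding RNA gene lies over part of RPS26 on the opposite strand. RPS9 is overlapped by LILRA6 and LILRB3 on the opposite strand, among others.

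The third comparison sets RBM5 OE against RBM5 KO and shares its libraries with the other comparisons. Here 6 of 85 genes were higher (19.5% of the 14754 genes tested) and 5 lower (20.6%), or 12.9% against 40.1% in either direction. None of the 85 reached a fold of 2, as 8.78% of all genes did. The lower genes were RPS27L (-0.91 ± 0.089, edgeR adjusted p = 1.88e-05), RPL7L1 (-0.41 ± 0.067), RPL26L1 (-0.61 ± 0.15), RPS26 (-0.52 ± 0.16) and RPL36AL (-0.26 ± 0.095). The higher genes were RPS9, RPL12, RPL15, RPL3, RPL22L1 and RPL39L. RPS9 had the clearest difference of the core genes, with 1545, 1601 and 1629 CPM in RBM5 OE against 1235, 1103 and 1288 CPM in RBM5 KO. Its log2 fold change was 0.40 ± 0.077 (edgeR adjusted p = 0.00174). The CTRL mean lay between, and neither comparison with CTRL passed for RPS9.

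RPL12, a protein at the base of the stalk, was at 1058, 1139 and 1123 CPM in RBM5 OE and at 877, 833 and 958 CPM in RBM5 KO (0.32 ± 0.077, edgeR adjusted p = 0.00646). RPL39L was at 9.11 to 9.52 CPM in RBM5 OE and at 7.93, 4.27 and 4.75 CPM in RBM5 KO, a change of 0.71 ± 0.21 at low counts (edgeR adjusted p = 0.0169), and it was lost without KO replicate 2, KO replicate 3 or OE replicate 3 (adjusted p up to 0.067). RPL3, next to the peptidyl transferase centre, was at 0.19 ± 0.066 (edgeR adjusted p = 0.0397). Groups did not overlap for 21 higher and 6 lower genes, beside 26.6% and 26% of all genes. RPS9, RPL12, RPS27L, RPL7L1 and RPL26L1 were called in all 22 alternatives of this comparison. RPS26 (adjusted p up to 0.0835) and RPL15 (up to 0.0529) were lost without OE replicate 1 or OE replicate 2. RPL3 (up to 0.112) and RPL22L1 (up to 0.135) were lost in 7 alternatives each, among them without KO replicate 2, and RPL36AL (up to 0.137) was called in 9. Without CTRL replicate 3 and RBM5 KO replicate 1, 15 genes were higher and 4 lower, beside 22.9% and 23.3% of all genes.

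Few members of the functional groups inside the ribosome were called. The stalk proteins RPLP0, RPLP1 and RPLP2, which recruit elongation factors, gave 0 calls in any comparison, with RBM5 OE log2 fold changes of 0.06 ± 0.062, 0.08 ± 0.068 and -0.09 ± 0.070. RPL5 and RPL11, which carry the 5S rRNA into the large subunit, were at 0.12 ± 0.060 and 0.01 ± 0.068 and also gave 0 calls. The 19 Diamond-Blackfan genes had 1 higher (RPL15) and 1 lower (RPS26) in RBM5 OE and a median log2 fold change of 0.01, where 19.8% and 20.2% of all genes were called. The 8 proteins of the exit tunnel and its mouth had 1 higher (RPL17). FAU, which encodes RPS30 as a fusion with a ubiquitin-like protein, and GNB2L1, which encodes RACK1, are outside the naming rule. Neither was called against CTRL. GNB2L1 was higher in RBM5 OE than in RBM5 KO (0.23 ± 0.068, edgeR adjusted p = 0.02).

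The core genes with a TOP tract at the start and those without it had similar medians. In RBM5 OE against CTRL the 46 with a tract had a median log2 fold change of 0.04 and the 16 without 0.06. In RBM5 KO both had a median of -0.03. The 16 include RPL3, whose run is 4 bases long, and RPS26, whose run lies further in. They are thus genes not scored at the annotated base, not genes known to lack a TOP tract. The 29 core genes that host snoRNAs in their introns (60 snoRNA genes in all) had a median of 0.04 in RBM5 OE, and the other 48 had 0.03. The members matched to the annotation were spread over many chromosomes, with 12 on chromosome 19 and 9 on chromosome 3.

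Core genes also varied together from library to library. CTRL replicate 2 had the highest value of its group for 70 of the 85 genes, beside 34.8% of all genes. CTRL replicate 3 had the lowest for 60, beside 37.2% of all genes. RBM5 KO replicate 2 had the lowest for 68, beside 30.6% of all genes. Its median lay 0.162 below the mean of the other RBM5 KO libraries on the log2 scale. The coefficient of variation of core genes had a median of 7.12% over CTRL libraries, 6.86% over RBM5 KO and 2.76% over RBM5 OE. Over all genes tested the medians were 10.0%, 12.4% and 6.85%. Core genes are more abundant than most genes tested, and the sets were not matched on level.

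**Figure D3:**
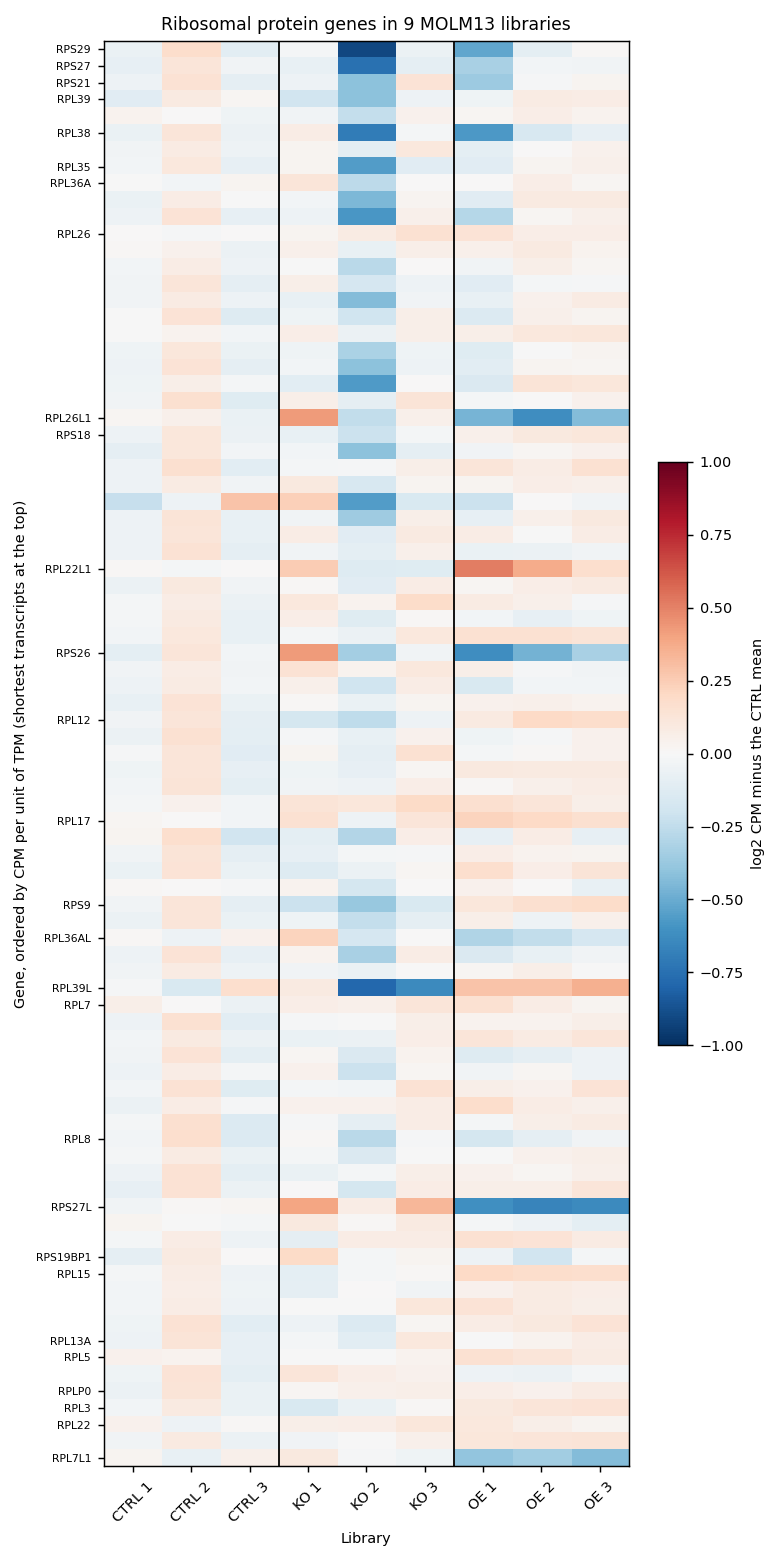
Log2 CPM of the 85 genes minus the CTRL mean of each gene (colour, red higher and blue lower) in the 9 libraries (columns), with genes ordered by CPM per unit of TPM, shortest transcripts at the top and some of the genes discussed by name labelled. KO 2 and, less so, OE 1 are blue at the top, and the rows of RPS27L, RPL7L1, RPL26L1, RPL36AL and RPS26 are blue across the 3 OE columns.

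The low values of RBM5 KO replicate 2 lay mainly in the shortest transcripts. Length was read as CPM per unit of TPM, which grows with the transcript length used in the deposited values. RPS29, with the lowest ratio, was at 232, 125 and 226 CPM in RBM5 KO, at 164, 219 and 237 CPM in RBM5 OE and at 224, 265 and 218 CPM in CTRL. RPL38 was at 242, 141 and 227 CPM in RBM5 KO and at 155, 205 and 217 CPM in RBM5 OE. In both, KO replicate 2 and OE replicate 1 were the low libraries of their groups.

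The 13 genes with a ratio under 0.25 had a median deviation of -0.299 in KO replicate 2 and -0.104 in OE replicate 1, while the 25 genes with a ratio of 0.5 or more were at -0.0365 and -0.00635. Other coding genes of the same low ratio (34 genes with a mean of at least 10 CPM) were at -0.344 and -0.118, so the pattern was not particular to ribosomal proteins. In CTRL replicate 2 the deviation followed GC content, with a Spearman's rho of 0.619 over 84 ribosomal protein genes and 0.559 over 8689 others, a description over genes that share 1 library. In RBM5 KO against CTRL the 13 shortest had a median log2 fold change of -0.14 and the other 72 of -0.02, and 0 of either set passed. The part of transcript length in that difference was not tested.

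**Figure D4:**
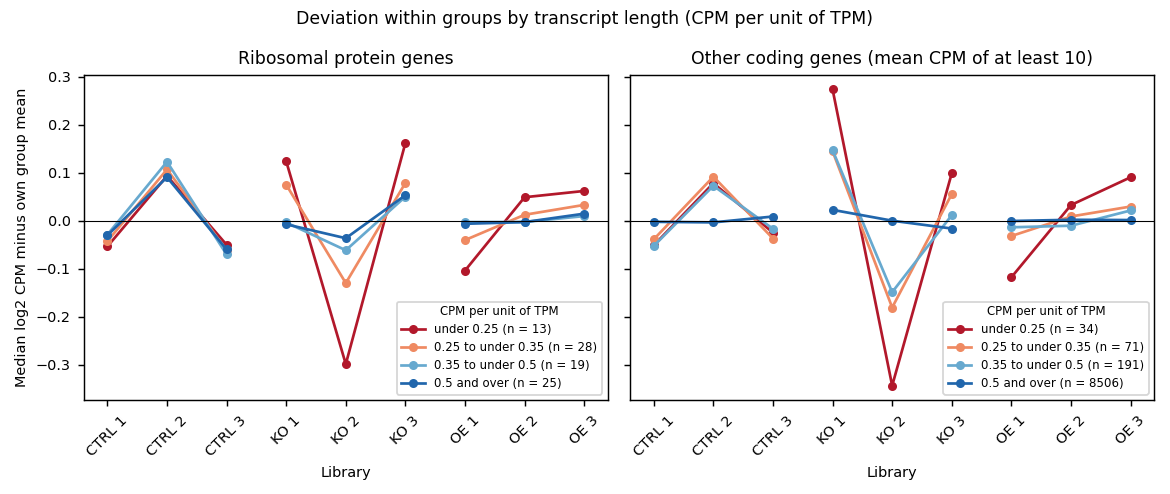
Median deviation of log2 CPM from the own group mean (vertical axis) in each library, for genes in 4 ranges of CPM per unit of TPM (lines, shortest in dark red), for the 85 ribosomal protein genes (left) and other coding genes with a mean of at least 10 CPM (right). In both panels the shortest genes dip in KO 2 (-0.299 and -0.344) and, less, in OE 1.

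Other genes of the translation machinery were counted in the same comparisons. In RBM5 KO against CTRL 0 genes were called among 17 translation factors and other genes with TOP mRNAs and 77 mitochondrial ribosomal proteins. Likewise 0 were called among 19 assembly factors and chaperones, 15 RNA polymerase I genes and 13 rescue and quality control factors. In the list of mTORC1 and TOP mRNA control, 2 of 17 were lower: MLST8, a subunit of mTORC1 (-0.84 ± 0.10, edgeR adjusted p = 0.00601), and EIF4EBP1, a target of mTORC1 that restrains cap-dependent translation (-1.04 ± 0.15, edgeR adjusted p = 0.0109).

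The translation factors and other genes with TOP mRNAs (TOP factors below) are most like the core ribosomal proteins in their mRNA starts. In RBM5 OE they had 3 higher and 0 lower, with a median of 0.07. The higher genes were NAP1L1 (0.42 ± 0.068), which is not a translation factor, EIF3L (0.19 ± 0.056) and PABPC1 (0.16 ± 0.052). Mitochondrial ribosomal proteins had 3 higher and 31 lower of 78, with a median of -0.155. MRPS26 (-1.05 ± 0.095), MRPS12 (-0.91 ± 0.090), MRPL14 (-0.88 ± 0.079) and MRPL44 (-0.76 ± 0.067) had the smallest p-values. Of 19 assembly factors and chaperones 8 were lower and 0 higher. They included GRWD1, which binds free RPL3 (-0.98 ± 0.082), TSR1 of the small-subunit precursor (-0.81 ± 0.071) and EIF6, which keeps the large subunit from joining too early (-0.67 ± 0.066).

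RNA polymerase I genes had 1 higher and 5 lower of 15, among them CD3EAP (-1.41 ± 0.15), POLR1A, the largest subunit (-0.78 ± 0.080), and POLR1B (-0.72 ± 0.077). The mTORC1 and TOP control list had 1 higher and 9 lower of 17. LARP1, which binds the cap and TOP tract, was at -0.36 ± 0.064 (edgeR adjusted p = 0.00098), and MLST8 was higher at 0.31 ± 0.076 (edgeR adjusted p = 0.00665). Of 13 rescue and quality control factors 3 were higher, among them RIOK3 (0.67 ± 0.069), and 6 lower, among them PELO, which splits stalled ribosomes (-0.70 ± 0.10). Against the 20.2% of all genes called lower in RBM5 OE, each of these lists but the TOP factors held a larger share of lower genes, and the core ribosomal proteins had 1 of 77. Whether the lists differ from one another was not tested. In RBM5 OE against RBM5 KO the TOP factors had 4 higher and 0 lower of 17, the mitochondrial ribosomal proteins 2 and 24 of 78, the assembly factors 1 and 10 of 19, and the RNA polymerase I genes 1 and 9 of 15. The mTORC1 and TOP control list had 2 and 9 of 17 and the rescue and quality control factors 3 and 6 of 13, where 19.5% of all genes were higher and 20.6% lower.

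**Figure D5:**
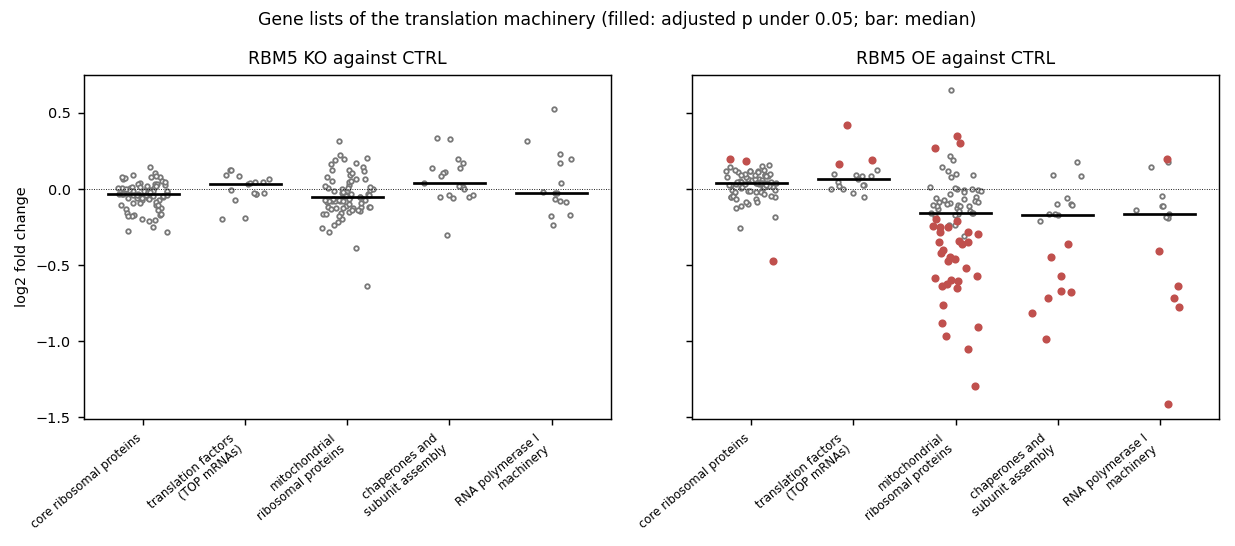
Log2 fold change (vertical axis) of each gene in 5 lists of the translation machinery, for RBM5 KO (left) and RBM5 OE (right) against CTRL, with filled points at an edgeR adjusted p under 0.05 and a bar at the median of each list. In RBM5 OE the 77 core ribosomal proteins lie near 0 with 3 filled points, while 31 of 78 mitochondrial ribosomal proteins and 8 of 19 assembly factors are filled below 0.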

How the data were processed

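RNA from 9 MOLM13 cultures (TRIzol, rRNA depletion, paired-end sequencing) was processed by the authors with Trim Galore, STAR 2.7.1a and GATK 4.1.2.0 MarkDuplicates per the labels. The deposited tables hold RSEM expected counts and TPM per gene, built on hg19 (GRCh37). STAR was set to accept reads that map to several places, so copies and pseudogenes can share reads. The study's methods also name Salmon, while the tables are named for RSEM. The day of harvest is not given in the labels, and the paper states different days in a figure legend and in its splicing methods.

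Expected counts were rounded and tested with edgeR 4.0.16 (filterByExpr, TMM, quasi-likelihood; R 4.3.3), with Benjamini-Hochberg adjustment over all genes and a threshold of 0.05. RBM5 KO and RBM5 OE were each fitted with CTRL alone, and RBM5 OE against RBM5 KO in all 9 libraries. CPM values are TMM-scaled over 9 libraries. TPM was used to compare genes with each other. Alternatives were DESeq2 1.42.0, limma-voom and limma on log2(TPM + 1) or log2(TPM + 0.1) (limma 3.58.1), other scalings and filters, a replicate block, and each library left out. Libraries differed beyond sampling noise (chi-square per gene 3.91 to 41.1), so none was merged. The scripts were checked on simulated data. With 25522952 to 27871988 reads per library, counting error was small beside the spread between libraries for core genes.

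The members and lists were chosen with earlier results of these data known. Named genes were the 10 largest called rises and falls per comparison, paralogs and parents, the stalk and 5S rRNA proteins, the 5 highest and lowest by TPM, the 3 most variable, 4 genes per related list, 3 pseudogenes, FAU, GNB2L1 and RBM5. Some genes that this rule names are not reported here. Genes named for group overlap, for alternatives or for short length fall outside that rule and were chosen after their values were seen. Annotation was taken from GENCODE, matched for 86 of 87 genes, and start sequences from RefSeq. The 92 spike-in rows, all at 0, were left out.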

Additional observations from a re-analysis of the deposited data

How the results depend on the processing

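In RBM5 KO against CTRL, 0 genes were higher in every alternative run, and the lower count of 0 became 1 without KO replicate 1 (range 0 to 1 over single libraries left out) and 5 without CTRL replicate 3 and KO replicate 1 together. In RBM5 OE against CTRL the 3 higher genes became 13 with library totals, 14 with log2(TPM + 1), 15 with log2(TPM + 0.1) and 1 to 17 over single libraries left out (17 without CTRL replicate 2, 1 without OE replicate 1 or OE replicate 2), while the 5 lower genes stayed at 4 to 7. In RBM5 OE against RBM5 KO the 6 higher genes became 17 with library totals, 14 and 13 on the TPM scales, 15 without CTRL replicate 3 and KO replicate 1, and 3 to 9 over single libraries left out (3 without KO replicate 2, OE replicate 1 or OE replicate 2). The 5 lower genes became 3 to 5 (3 without OE replicate 1 or OE replicate 2). The median log2 fold change of that comparison was 0.11 (0.1123) on both TPM scales in place of 0.05. In RBM5 OE against CTRL the median of the ribosomal protein genes was 0.1014 on both TPM scales in place of 0.04. Dropping a single CTRL library moved it to -0.004447 (replicate 1), 0.07677 (replicate 2) or -0.006935 (replicate 3), so its sign depended on the libraries used. Library totals moved the median of all genes in RBM5 OE against CTRL to 0.0505 from 0.0131. The pseudogene RPL41P1 was at -0.0939 in RBM5 OE and turned to 0.1789 on both TPM scales. The cause of these shifts was not tested. The share of TPM kept its direction in each alternative.

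Same-numbered libraries did not deviate together over all genes (correlations of -0.199 to 0.093), and not every library correlated best with its own number. Over the ribosomal protein genes the same pairs ranged from -0.538 to 0.501. CTRL replicate 3 and KO replicate 1, which stood apart, correlated at 0.313 over all genes and 0.509 over the ribosomal protein genes. Some other pairs correlated more over the ribosomal protein genes, with KO replicate 2 and OE replicate 1 at 0.774 (0.065 over all genes). With a replicate block, 0 higher and 0 lower ribosomal protein genes were called for RBM5 KO, 3 and 6 for RBM5 OE, and 5 and 4 in RBM5 OE against RBM5 KO, and among all genes 45 higher and 109 lower in RBM5 KO (119 and 238 without it). Leaving out CTRL replicate 3 and KO replicate 1 could not be fitted as a separate alternative for RBM5 OE against CTRL, which holds no KO library. Reads for RPL39L and RPL26L1 are few, which limits their precision.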
